A study of Rattus norvegicus with 98 samples.

Results

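H3K27ac peak lists of the prelimbic cortex (PLC) were compared between fluoxetine-treated (FT) and vehicle (Sham) rats. The members were the 4 libraries whose titles name PLC, which are Sham replicates 1 and 2 and FT replicates 1 and 2, out of 94 peak lists from 25 brain regions. All rats were male Long-Evans animals, 2 months old by the labels. By the study's methods, that was their age when set into groups, before the treatment. FT rats took fluoxetine at 18 mg per kg in their drinking water for 6 weeks, and Sham rats took water for the same time. Each library came from frozen tissue punches pooled over several animals, so no library stands for 1 animal, and p-values measure only the spread between pools. In pooled tissue, fewer acetylated cells and less acetylation per cell cannot be told apart. The files carry no read counts, so the sequencing depth of the libraries is unknown.

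H3K27ac is acetylation of lysine 27 on histone H3, a mark laid on nucleosomes beside active promoters and enhancers. A wide, strong peak usually covers several neighbouring nucleosomes of an active element. The prelimbic cortex is part of the medial prefrontal cortex of rodents, and its output to the amygdala, accumbens and raphe takes part in the control of stress responses. Fluoxetine blocks the reuptake of serotonin, and its behavioural effects build up over weeks of treatment. The lists place peaks on the Rn5 rat genome, and no annotation of that build was used here, so loci are given by position without gene names.

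The labelled tissue was checked first. Windows of 1 kb were called neocortical when at least 50% of the Sham libraries of ILC, CGC and InsularCortex (infralimbic, cingulate and insular cortex) occupied them and no Sham library of a non-cortical class did, on lists cut to the same number of peaks. A window counts as occupied where peaks cover at least 50% of it. Of 1111 neocortical windows, Sham replicate 1 occupied 39.2%, Sham replicate 2 occupied 13.1%, FT replicate 1 occupied 81.5% and FT replicate 2 occupied 80.1%. Windows restricted to accumbens, septum, amygdala, dentate gyrus, hypothalamus, thalamus, midbrain or hindbrain were occupied at no more than 6.88% in a Sham library and no more than 11.0% in an FT library. On full PLC lists the check was less sharp. FT replicates 1 and 2 there occupied 60.5% and 54.5% of the amygdala windows, against 96.1% and 94.0% of the neocortical ones. The highest share of a non-cortical class in a full Sham list was 11.25%, of the septal windows in Sham replicate 1. In both kinds of list, each of the 4 libraries held a larger share of the neocortical windows than of any other class, and that share was lowest in Sham replicate 2.

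The Sham libraries were not alike. On lists cut to the 19629 peaks with the highest maxScore, the length of the shortest list, the Jaccard index of Sham replicates 1 and 2 was 0.364. This index is the count of windows that a pair of libraries share, as a fraction of the windows that either of them holds. Sham replicate 1 had an index of 0.566 with FT replicate 1 and 0.571 with FT replicate 2, so it lay nearer to each FT library than to its own replicate. The FT libraries had an index of 0.771 with each other. Sham replicate 2 held 4969 windows that no other PLC library occupied, 24.6% of its windows, against 8.49% to 10.6% in the other 3 libraries. Of those 4969 windows, 69.6% were occupied somewhere in another region, against 98.0% to 98.8% for the windows held by only 1 of the other 3 libraries.

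The number of called peaks was compared next. The full lists held 30577 and 19629 peaks in Sham replicates 1 and 2, and 54505 and 50668 peaks in FT replicates 1 and 2. They covered 41.7 and 20.5 Mb in Sham and 89.0 and 80.6 Mb in FT. Each FT list was longer than each Sham list, but the gap between the Sham lists was wider than that between the FT lists. The mean of FT exceeded that of Sham by a log2 ratio of 1.07 for peak number and 1.45 for covered length (exact permutation test over the 4 libraries, two-sided, p = 0.33 for each, the smallest that 2 against 2 allows). Against Sham replicate 2 alone the log2 ratio of covered length was 2.05, and against Sham replicate 1 alone it was 1.02. No comparison of single values in PLC can pass a threshold of 0.05.

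The peaks themselves scored higher in FT. The median maxScore, the highest value of the peak filter within a peak, was 70.2 and 56.8 in the Sham lists and 111 and 109 in the FT lists. The lowest maxScore admitted was also higher in FT, at 58.1 and 57.7 against 45.8 and 44.7 in Sham. Peaks at the upper limit of the −log10 p-value, which is 200, numbered 143 and 8 in Sham and 1556 and 1543 in FT. The strongest Norm-tag-count, a whole-number score per peak whose unit is not given in the sources used here, was 21 and 13 in Sham and 36 and 38 in FT. The groups did not overlap in any of these values.

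Peak width differed in the same direction. The median width was 1300 and 1000 bp in Sham replicates 1 and 2 and 1600 bp in each FT library. On equal-size lists it was 1600 and 1000 bp in Sham and 2100 bp in each FT library. The cut left the list of Sham replicate 2 whole and shortened the FT lists most, so the wider gap does not describe stronger peaks. The mean of these medians was higher in FT by a log2 ratio of 0.48 for the full and 0.69 for the equal-size lists (exact permutation test, two-sided, p = 0.33 for each). Against Sham replicate 2 alone these ratios were 0.68 and 1.07, and against Sham replicate 1 alone they were 0.30 and 0.39. Peaks wider than 2 kb made up 10.5% and 2.09% of the full Sham lists and 25.1% and 22.9% of the full FT lists.

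**Figure D1:**
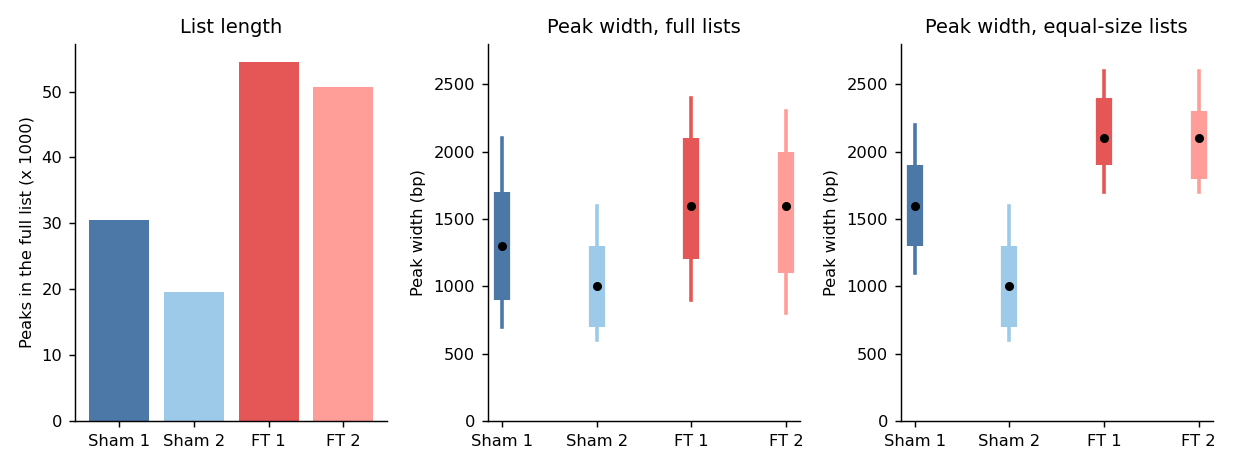
Number of peaks in each full list (left, in units of 1000) and peak width in bp for the full lists (middle) and the equal-size lists of 19629 peaks (right) for the 4 PLC libraries. Thick bars span the 25th to 75th percentile of the peaks, thin lines the 10th to 90th, and points mark the median; the medians of the FT libraries lie above those of the Sham libraries in both kinds of list.

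Width was also compared at the same places. Peaks of the 4 full lists were merged into 66063 elements, and 12982 of them (19.7%) held a peak of each library. At these shared elements the median width was 1700 and 1200 bp in Sham replicates 1 and 2, and 2200 and 2100 bp in FT replicates 1 and 2. In 12017 elements, 92.6% of those compared, the peak was wider in both FT libraries than in both Sham libraries, and in 25 (0.193%) it was narrower in both. Each of the 12017 was thus also wider in both FT libraries than in Sham replicate 1 alone. When the same libraries were set by replicate number, 263 elements were wider in both replicate 1 libraries and 16 in both replicate 2 libraries. With the crossed arrangement (Sham 1 and FT 2 against Sham 2 and FT 1), 77 and 30 elements did not overlap.

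The difference in width was larger at weak elements. Elements were ranked by their mean maxScore over the 4 libraries and divided into 5 bins of like number. In the weakest bin (2597 elements) the median width was 1200 and 800 bp in Sham and 1800 and 1700 bp in FT, and the median log2 difference was 0.79. In the strongest bin (2597 elements) it was 2100 and 1600 bp in Sham and 2400 and 2300 bp in FT, and the median log2 difference was 0.35. The widths thus came closer together at the strongest elements, while the FT libraries stayed wider in every bin.

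Norm-tag-count followed the opposite course along the same elements. In the weakest bin its mean was 3.39 and 3.08 in Sham and 5.20 and 4.97 in FT. In the strongest bin its mean was 6.65 and 4.55 in Sham and 12.7 and 12.5 in FT. The mean difference on the log2(Norm-tag-count + 1) scale was 0.50 in the weakest and 1.05 in the strongest bin. Of the 12982 shared elements, 12480 (96.1%) had a higher Norm-tag-count in both FT libraries than in both Sham libraries, and 4 (0.0308%) had a lower one.

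**Figure D2:**
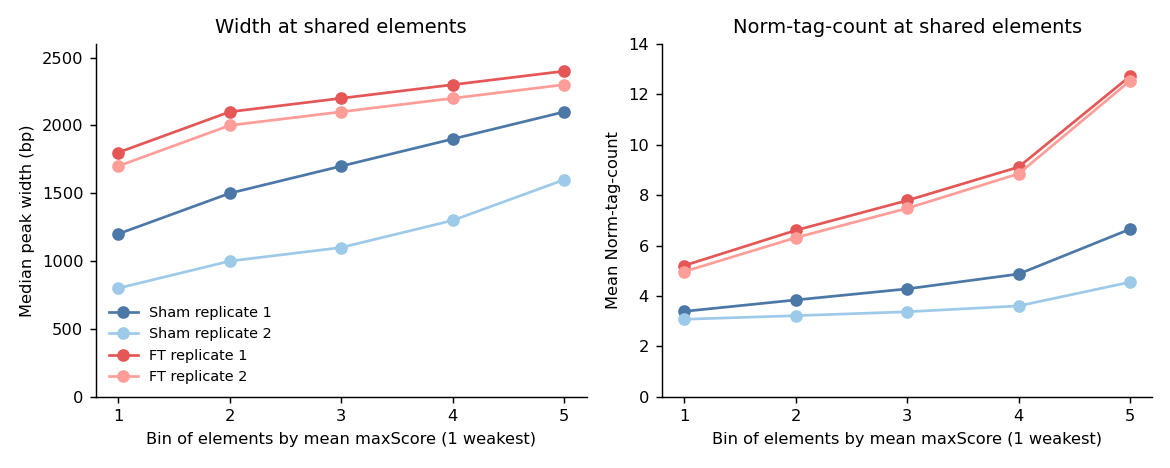
Median peak width in bp (left) and mean Norm-tag-count (right) at the 12982 elements with a peak in each PLC library, in 5 bins of 2596 or 2597 elements by mean maxScore, from the weakest (1) to the strongest (5). Each line is 1 library; the FT lines lie above the Sham lines throughout, and they approach each other in width and part in Norm-tag-count toward the strongest elements.

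That shift touched nearly every element, so single elements were tested relative to it. The median log2(Norm-tag-count + 1) difference between FT and Sham was 0.81 before scaling and -0.01 after quantile normalisation. With limma on the normalised values, 0 of 12982 elements were higher and 0 were lower in FT at a Benjamini-Hochberg adjusted p of at most 0.1 and a log2 difference of at least 0.32 in size (0% each way), and the lowest adjusted p was 0.186. At an unadjusted p under 0.05, 841 elements were higher and 1175 lower. With median centring in place of quantile normalisation, limma called 572 higher and 466 lower. With the 25% of elements of lowest mean Norm-tag-count left out, limma called 166 higher and 187 lower of 9574, so the absence of calls depended on the scaling and the filter. Without Sham replicate 1, limma called 806 higher and 1266 lower, and without Sham replicate 2 it called 377 and 482. The Sham arm of these fits is a lone library, assumed to vary as the FT libraries do. Joint fits with the 4 libraries of another region used the elements with a peak in all libraries of both. There limma called 516 PLC elements higher and 438 lower in FT of 12754 with CGC. It called 751 and 654 of 12842 with InsularCortex, and 1 and 0 of 9159 with ILC. Norm-tag-count takes few distinct values at weak peaks, with 79.2% and 92.5% of the peaks in Sham replicates 1 and 2 between 2 and 4.

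The elements with the lowest p show what such a difference looks like. On chromosome 5 from 62885069 to 62887378, Norm-tag-count was 4 and 3 in Sham replicates 1 and 2 and 13 in each FT library. The log2 difference after normalisation was 0.77 (SE 0.0873, limma adjusted p = 0.186). On chromosome 10 from 10050316 to 10053146 it was 4 and 3 in Sham and 12 in each FT library, and the normalised log2 difference was 0.60. On chromosome 8 from 59879569 to 59882168 it was 6 and 4 in Sham and 18 in each FT library, and the normalised log2 difference was 0.64. Together, 3 elements shared the lowest p in the other direction, on chromosome 1 from 201964158 to 201965857, chromosome 4 from 209838298 to 209839797 and chromosome 7 from 119596502 to 119597401. In each of these, Norm-tag-count was 3 in both Sham libraries and 2 in both FT libraries, and the normalised log2 difference was -0.80 (SE 0.10, limma adjusted p = 0.186). Before normalisation, a step of 1 in this score was thus the whole difference at those elements. The normalised log2 values were 2.29 and 2.48 in Sham replicates 1 and 2 and 1.58 in each FT library. The normalised difference therefore also holds the scaling against the general shift.

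The next comparison asked which windows were occupied in 1 treatment only. On equal-size lists, 56518 windows were occupied in at least 1 PLC library, and 13007 of them in all 4. A window was called gained where both FT libraries and neither Sham library occupied it, and lost in the reverse case. There were 10056 gained windows (17.8% of the 56518) and 573 lost windows (1.01%). On full lists, 104374 windows were occupied at least once, with 32891 gained (31.5%) and 593 lost (0.568%). Cutting the lists to the same length therefore removed most of the gained windows. The number of lost windows hardly altered, but the windows were mostly different ones. Only 125 of the 573 were also lost on full lists.

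The treatment arrangement separated more windows than the other ways of setting 2 libraries against 2. On equal-size lists, the replicate number separated 1381 windows, of which 1196 were held by both replicate 1 libraries and 185 by both replicate 2 libraries. The crossed arrangement separated 1014 windows, 846 held by Sham replicate 1 with FT replicate 2 and 168 held by Sham replicate 2 with FT replicate 1. The treatment arrangement separated 10629, and its log2 ratio to the mean of the other arrangements was 3.15 (exact permutation test, two-sided, p = 0.33, the smallest possible). On full lists the arrangements separated 33484, 1329 and 799 windows, with a log2 ratio of 4.98 (exact permutation test, two-sided, p = 0.33). In every arrangement, the pair of libraries without Sham replicate 2 held more windows than the pair that contained it.

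**Figure D3:**
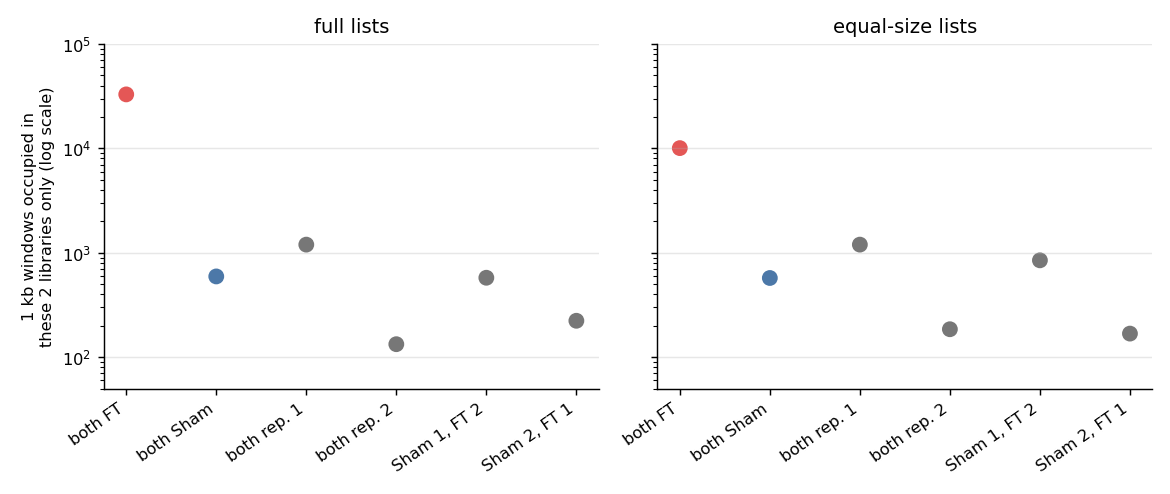
Number of 1 kb windows (log scale) occupied in exactly the 2 named PLC libraries, on full lists (left) and equal-size lists (right). The windows held by both FT libraries (32891 and 10056) exceed those of the 5 other pairs, which lie between 133 and 1196.

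Leaving out 1 library showed how much rested on each. Without FT replicate 1, FT replicate 2 stood apart from the Sham libraries at 14346 windows of the equal-size lists, while Sham replicate 2 stood apart from Sham replicate 1 and FT replicate 2 at 18683. Without FT replicate 2, the numbers were 15386 for FT replicate 1 and 19050 for Sham replicate 2. The log2 ratio fell to 0.23 and 0.33 in these cases (exact permutation test, two-sided, p = 0.67 for each). Without Sham replicate 2, the FT libraries differed from Sham replicate 1 at 14973 windows, 10976 gained and 3997 lost. Without Sham replicate 1, they differed from Sham replicate 2 at 28298 windows, 22756 gained and 5542 lost. The excess of gained over lost windows was therefore present against either Sham library, and the number of lost windows rose when 1 Sham library had to hold them alone. Lists of equal peak number were not equal in cover, however. They covered 32.1 and 20.5 Mb in Sham replicates 1 and 2, and 42.7 and 41.4 Mb in FT replicates 1 and 2. With all 4 lists cut to the same covered length, 3067 windows were gained and 1418 lost, a smaller excess.

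Gained windows came from the middle and lower part of the equal-size FT lists, which hold only the highest-scoring peaks of the full FT lists. Each peak was given the percentile of its score within its own equal-size list. The peaks over gained windows had a median maxScore percentile of 38.4 in FT replicate 1 and 38.1 in FT replicate 2, and a median Norm-tag-count percentile of 33.8 and 38.7. Of the gained windows, 9.31% and 9.29% lay under a peak in the top 20% of these lists. Windows occupied in all 4 libraries had a median maxScore percentile between 77.3 and 78.1 in each library. Windows separated by replicate number or crossed ranked lower still in the FT lists, with medians from 12.6 to 15.1.

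Lost windows ranked low in 1 Sham library and near the middle in the other. Their median maxScore percentile was 18.6 in Sham replicate 1 and 48.3 in Sham replicate 2. Of the lost windows, 53.1% lay under a peak in the bottom 20% of the equal-size list of Sham replicate 1. The Norm-tag-count there was 3 at the median in each Sham library. The full FT lists held most of these places, since only 125 of the 573 lost windows were occupied in neither full FT list. The same reading for gained windows left 8618 of 10056 occupied in neither full Sham list. Most of the gained windows were nevertheless touched by a peak of a full Sham list. Only 2262 of the 10056 (22.5%) overlapped no such peak. Of the 573 lost windows, 110 (19.2%) overlapped no peak of a full FT list, so in this share the classes were nearly alike. In number they were not. With any overlap counted as occupied, 12026 windows were gained and 1283 lost on equal-size lists. The asymmetry in share between the readings against full lists was thus one of occupied windows. The full FT lists are the longer ones, and the part of list length in this asymmetry was not tested.

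Many gained windows lay at the rims of Sham peaks. On equal-size lists, 5504 of the 10056 gained windows (54.7%) were touched by a Sham peak that covered less than 50% of them, and 6078 (60.4%) overlapped or lay within 1 kb of one. Without Sham replicate 1 this share was 45.3%. Of the windows separated by replicate number or crossed, 27.0% to 31.5% lay as close to a peak of a library that lacked them. Only 29.6% of gained windows held the centre of an FT peak, against 66.7% to 84.3% in those other classes and 94.4% of lost windows. Lost windows adjoined an FT peak in 9 of 573 cases (1.57%). When each peak was reduced to the window of its centre, gained windows numbered 2822 and lost windows 1021.

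On full lists the placing changed. Of the 32891 gained windows, 11985 (36.4%) adjoined a Sham peak, 53.9% lay more than 5 kb from any, and 63.8% held the centre of an FT peak. The full FT lists held 54505 and 50668 peaks over 89005 and 80558 windows. The windows separated by replicate number or crossed adjoined a peak of a library that lacked them in 62.5% to 66.1% of cases, so the order of equal-size lists was turned round. Windows at the rims of Sham peaks and windows far from any were thus both present, and the former made up more of the equal-size lists. Of the 593 lost windows, 545 (91.9%) lay more than 5 kb from any FT peak. Their median distance to the nearest window occupied in all 4 libraries was 288 kb, against 43 kb for gained windows.

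Gained windows were short and spread over the genome. On equal-size lists they formed 7903 loci of adjoining windows, of which 5931 were 1 window long and 174 had 3 windows or more. At least 1 gained window lay in 1901 of the 2646 bins of 1 Mb that held an occupied window (71.8%), with a median of 2 per bin. The share of occupied windows that were gained ran from 15.2% on chromosome X to 19.5% on chromosome 8, so no chromosome stood far from the 17.8% of the whole genome. Lost windows were less even, with 117 of 573 (20.4%) on chromosome 1, where 1.67% of occupied windows were lost. On full lists, 280 of 593 lost windows (47.2%) lay on chromosome 1. Chromosome 1 also held 14.3% of the peaks of Sham replicate 2, against 11.1% to 12.5% of the other full lists. The bin richest in gained windows was on chromosome 17 from 76000001 to 77000000, with 35 gained, 0 lost and 12 windows in all 4 libraries; it was singled out after its values were seen.

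The longest gained loci adjoined Sham peaks. The longest, on chromosome 7 from 11964001 to 11969000, spanned 5 windows, under FT peaks of 4700 and 4600 bp with a Norm-tag-count of 10 in each. A peak of a full Sham list touched it, and 44 of 45 Sham libraries of other regions occupied a part of it. The next, on chromosome 3 from 168279001 to 168283000, lay under FT peaks of 3400 and 3500 bp with Norm-tag-counts of 7 and 6, and was also occupied in 44 of 45 Sham libraries of other regions. The third, on chromosome 6 from 102599001 to 102603000, lay under FT peaks of 3600 and 3300 bp and was occupied in 17 Sham and 27 FT libraries of other regions. All 3 were touched by a peak of a full Sham list of PLC.

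Loci far from any Sham peak were rarer. Of the 7903 gained loci, 601 (7.60%) had no peak of either full Sham list within 5 kb. The 5 with the highest Norm-tag-count rank in both FT libraries are given here. The first lay on chromosome 11 from 37603001 to 37605000, with a Norm-tag-count of 11 in each FT library and peaks of 2300 and 4000 bp. The nearest Sham peak was 9.47 kb away, and 14 Sham and 26 FT libraries of other regions occupied it. The second lay on chromosome 16 from 3835001 to 3838000, with Norm-tag-counts of 11 and 10 and peaks of 3200 and 2800 bp, and 28 Sham and 37 FT libraries of other regions occupied it.

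The other 3 lay on chromosomes 8 and 6. On chromosome 8 from 75651001 to 75654000, the FT peaks were 3300 and 3400 bp wide with a Norm-tag-count of 10 in each, and 16 Sham and 21 FT libraries of other regions occupied the locus. On chromosome 8 from 51700001 to 51702000, both FT peaks were 2300 bp wide with a Norm-tag-count of 10, and the nearest Sham peak was 30.6 kb away. That locus was the most restricted of the 5, occupied in 7 other regions, and 5 of the 6 cortical Sham libraries held it. On chromosome 6 from 102227001 to 102230000, the FT peaks were 3000 and 2800 bp wide with Norm-tag-counts of 10 and 9, and the nearest Sham peak was 18.8 kb away. Each of the 5 was occupied in at least 4 of the 6 Sham libraries of ILC, CGC and InsularCortex, and in all 6 of their FT libraries.

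The lost loci were weaker. Of 543 lost loci, 95 (17.5%) had no FT peak within 5 kb. The first by rank lay on chromosome 1 from 54891001 to 54893000, with a Norm-tag-count of 3 in each Sham library, a maxScore of 66.4 and 73.9, and peaks of 1700 and 1800 bp. It was occupied in 17 Sham and 3 FT libraries of other regions. The next 4 lay on chromosome 1 from 5824001 to 5825000, from 6374001 to 6375000, from 7036001 to 7037000 and from 9188001 to 9189000, each with a Norm-tag-count of 3 in both Sham libraries and peaks of 800 to 1100 bp. Their ranks were tied with many others, and position alone put chromosome 1 first. The longest lost locus, on chromosome 5 from 175414001 to 175417000, lay under Sham peaks of 2900 and 2100 bp with Norm-tag-counts of 4 and 3, and a full FT list held a peak that touched it. The longest after it, on chromosome 1 from 427001 to 429000 and from 605001 to 607000, were also touched by a peak of a full FT list.

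Whether the changed windows were active in other regions was then examined. Of the 10056 gained windows of the equal-size lists, 10044 (99.9%) were occupied in at least 1 of the 90 libraries of the 24 other regions, and 12 were not. In Sham libraries of other regions alone, 9925 (98.7%) were occupied, and in the 6 Sham libraries of ILC, CGC and InsularCortex, 9567 (95.1%). A further 119 were occupied elsewhere in FT libraries only. The windows called gained in PLC, which a Sham PLC peak may still touch, were thus nearly all occupied in a vehicle library of another region. The same shares were 99.8% for lost windows and 98.8% to 100% for windows separated by replicate number or crossed, so this share did not set gained windows apart.

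The number of regions differed more. Gained windows were occupied in a median of 21 of 24 other regions, lost windows in 22, and windows of all 4 PLC libraries in 24. For windows separated by replicate number or crossed, the median was 23 or 24. Gained windows occupied in 1 to 5 other regions numbered 1122 (11.2%), in 6 to 22 regions 4713 (46.9%), and in 23 or 24 regions 4209 (41.9%). Of the windows in all 4 PLC libraries, 92.6% were occupied in 23 or 24 regions. Among those separated by replicate number or crossed, 50.6% to 63.2% were. Gained windows found elsewhere only in ILC, CGC or InsularCortex numbered 387 (3.85%), against 3 of 573 lost windows (0.524%). This share was 0.920% to 2.98% for windows separated by replicate number or crossed. On full lists, gained windows were occupied in a median of 15 regions and lost windows in a median of 10, with 27.8% of the former and 1.35% of the latter in 23 or 24 regions. Of the gained windows of the full lists, 3115 of 32891 (9.47%) were found elsewhere only in those cortical regions. For windows of the full lists separated by replicate number or crossed, that share was 3.93% to 6.73%. Their medians ran from 11 to 18 regions.

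**Figure D4:**
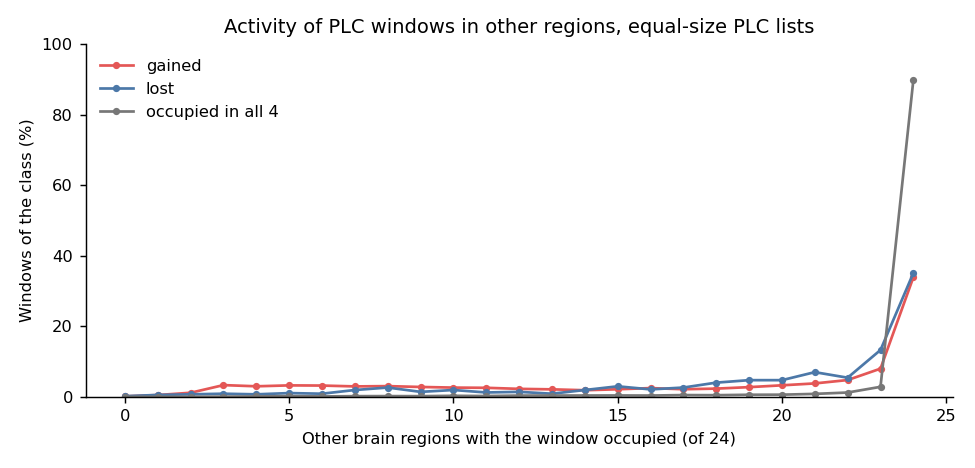
Share of windows (%) by the number of other brain regions, of 24, in which at least 1 library occupied them, for gained windows (10056), lost windows (573) and windows occupied in all 4 PLC libraries (13007) of the equal-size lists. All 3 classes are most frequent at 24 regions, with 33.9% of gained, 35.1% of lost and 89.8% of windows in all 4 libraries, and the rest of the gained and lost windows spread over fewer regions.

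The regions that shared the gained windows were the neighbouring cortical ones, in part. Of the gained windows, Sham replicates 1 and 2 of InsularCortex occupied 82.7% and 86.4%, and those of CGC occupied 63.2% and 69.7%. Sham replicates 1 and 2 of ILC occupied 48.3% and 9.54%. The low share in ILC went with a short list, since Sham replicate 2 of ILC held 19378 peaks. Of the non-cortical regions, venDG (62.7% and 68.9%) and dorDG (62.7% and 61.3%), the ventral and dorsal dentate gyrus, came next in Sham. In FT libraries, ILC, CGC and InsularCortex occupied a mean of 87.4%, 87.0% and 85.4% of them.

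List length went along with these shares. Among Sham libraries of other regions with under 30000 peaks, 10 libraries occupied 9.54% to 32.4% of the gained windows, with a median of 28.4%. Among those with over 45000 peaks, 10 Sham libraries occupied 50.5% to 86.4% (median 56.2%) and 37 FT libraries occupied 53.6% to 90.3% (median 63.8%). The FT libraries of other regions also had longer lists, with a median of 48338 peaks against 40177 in Sham. Both HB (habenula) libraries, Sham and FT, were left out of these ranges and medians. The Sham library of HB occupied 0.392% of the windows held by all 4 PLC libraries on equal-size lists, against at least 69.8% in each library of the other regions. The part of list length in the gained windows of PLC was not tested.

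Lost windows depended on the kind of list. On equal-size lists they too were occupied more in longer lists, with a median of 42.8% in the Sham libraries under 30000 peaks and 64.7% in those over 45000. The lost windows of the full lists showed the reverse, HB again left out. Among Sham libraries of other regions with under 30000 peaks they were occupied at 26.1% to 69.5% (median 46.5%), and among those with over 45000 peaks at 2.36% to 19.1% (median 7.5%). In the 37 FT libraries with over 45000 peaks the median was 3.88%. The highest share of any library was in Sham replicate 2 of ILC, the shortest list of the series. The lost windows of the full lists were therefore held by short lists of both cortical and non-cortical regions, and less by long ones.

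The Sham library of HB held many of the lost windows and almost none of the others. It shares little with any other library, and whether its label or its enrichment is sound was not tested. It occupied 358 of the 593 lost windows of the full lists (60.4%), 74 of the 14492 windows in all 4 PLC libraries (0.511%) and 51 of the 32891 gained windows (0.155%). On equal-size lists it occupied 118 of 573 lost windows (20.6%) and 4 of 10056 gained windows (0.0398%). Of the 95 lost loci with no FT peak within 5 kb, 69 (72.6%) had a window in that library, against 0 of the 601 gained loci apart from Sham peaks. Those 95 loci were occupied in a median of 19 Sham and 5 FT libraries of other regions. With the windows of the HB library left out, a choice made after the values were seen, 235 lost and 32840 gained windows of the full lists were left.

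**Figure D5:**
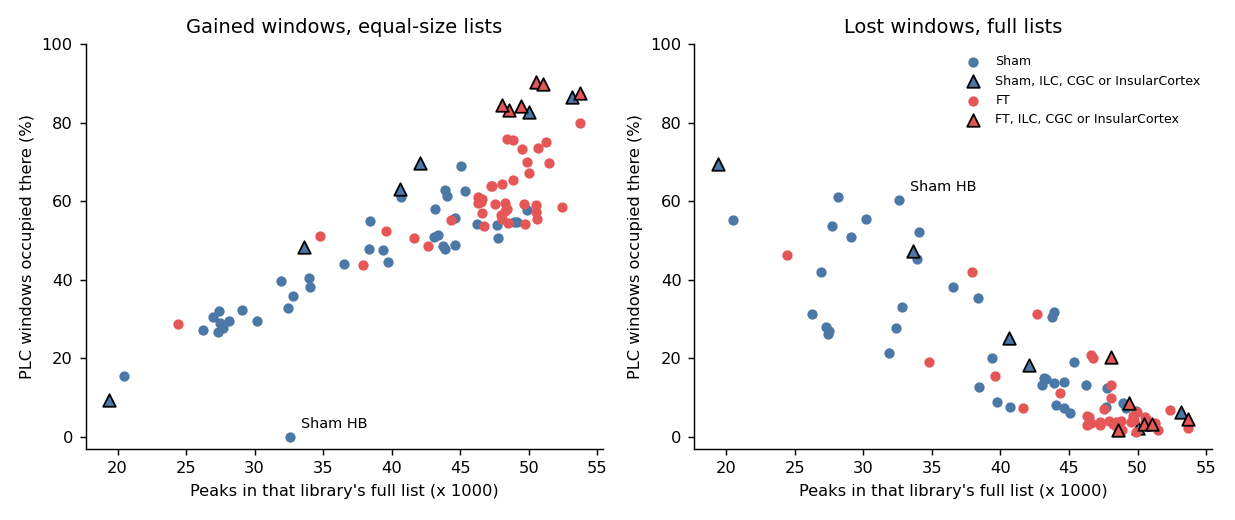
Share of the gained windows of the equal-size PLC lists (left, %) and of the lost windows of the full PLC lists (right, %) occupied in each of the 90 libraries of other regions, against the number of peaks in that library's full list (in units of 1000). Blue marks Sham, red FT, and triangles the libraries of ILC, CGC and InsularCortex; the gained windows of the equal-size lists are occupied more in longer lists and the lost windows of the full lists more in shorter ones, and the Sham library of HB holds 0.0398% of the former and 60.4% of the latter.

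The same counts were made in the neighbouring cortical regions to show where PLC stood. Each region was cut to its own shortest list, and the log2 ratio of the treatment arrangement to the others was 3.15 in PLC, 2.03 in ILC, 0.98 in CGC and -0.03 in InsularCortex (exact permutation test, two-sided, p = 0.33 in the first 3 and 1 in InsularCortex). The difference between regions was not tested, and the lists were cut at different lengths. Sham replicate 2 had the shortest list in ILC as in PLC, whereas the 4 InsularCortex lists held 48578 to 53706 peaks. Of the 10056 windows gained in PLC, 2935 (29.2%) were also gained in ILC, which is 44.6% of the windows gained there. In CGC 845 (8.40%) and in InsularCortex 129 (1.28%) were also gained. Of all windows occupied in the region, 11.8% were gained in ILC, 6.11% in CGC and 2.00% in InsularCortex. Of the 573 windows lost in PLC, 31 (5.41%) were also lost in ILC, which is 8.47% of the windows lost there, 47 (8.20%) were lost in CGC and 4 (0.698%) in InsularCortex. Of all occupied windows, 0.659% were lost in ILC, 1.0% in CGC and 1.79% in InsularCortex.

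The fluoxetine difference in Norm-tag-count was set against those regions element by element. In limma fits with an interaction of treatment and region, 0 of 9159 elements differed between PLC and ILC, 0 of 12754 between PLC and CGC, and 0 of 12842 between PLC and InsularCortex, at the same thresholds. At an unadjusted p under 0.05, these fits counted 190 elements with the higher and 270 with the lower difference in PLC against ILC, 445 and 606 against CGC, and 877 and 1108 against InsularCortex. The lowest adjusted p was 0.904 for ILC, 0.582 for CGC and 0.167 for InsularCortex. Without Sham replicate 1 of PLC, limma called 2309 elements against CGC and 3307 against InsularCortex, and without Sham replicate 2 it called 591 against InsularCortex. With any PLC library left out, the fit against ILC called 0. In such fits 1 arm holds a lone library, which is assumed to vary like the other groups, so these counts are values and no test of that library's arm.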

How the data were processed

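Male rat brain regions were profiled by H3K27ac ChIP-seq. According to the study's methods, the authors aligned reads to Rn5 (the submitters' notes name BWA; its version is not given in the sources used here) and ran the peak caller DFilter library by library, with no pooling. Each deposited list gave 2 scores per peak (maxScore and Norm-tag-count), a −log10 p-value (4 to 200 in PLC) and a false discovery rate as a percent, which was 0 throughout. Depth is unknown, so no counting interval was computed. Peak starts were read as counting from 0, and positions are printed counting from 1.

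The 4 PLC libraries and the lists of names were chosen with earlier results of these data known. Windows were 1 kb, on 20 autosomes and X. Single values were compared by exact permutation over the 4 libraries, and elements with limma 3.58.1 (R 4.3.3) on quantile-normalised log2(Norm-tag-count + 1), with scripts in Python 3.11.15 tested on simulated data. The study tested reads per peak, which the lists do not hold. Named loci were the 5 gained and 5 lost with the highest lower Norm-tag-count rank over the 2 libraries holding them, among loci more than 5 kb from a peak of the opposite treatment, and the 3 longest each way; with no element past the thresholds, the 3 lowest p each way were named. The study's methods state that Sham and FT libraries of a replicate were processed in parallel, which pairs them by number. Over windows of the equal-size lists, replicate 1 minus replicate 2 in Sham and the same in FT had a correlation of 0.0053. Input libraries were not used.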

Additional observations from a re-analysis of the deposited data

How the results depend on the processing

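With 2 libraries a group, 1 library decides many values, depth is unknown, and the exact test cannot pass 0.05. The treatment arrangement kept a log2 ratio above 0 in every alternative run, which means above the mean of the other arrangements. Without FT replicate 1 or FT replicate 2 on equal-size lists it was not the largest, since setting Sham replicate 2 apart separated more windows. Requiring a gain or loss within each replicate pair (the replicate block) gives the same windows by construction, 10056 gained and 573 lost on equal-size lists and 32891 and 593 on full lists, and limma with the block called 0 elements each way, also in the interaction fits.

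On equal-size lists, gained and lost windows numbered 20207 and 1172 with 500 bp windows, and 1237 and 0 with 5 kb windows. They numbered 3067 and 1418 on lists of matched covered length, 2822 and 1021 by peak centres, and 12026 and 1283 with any overlap. Lists of 10000 peaks gave 4551 gained, and FT read from the full lists gave 125 lost. On full lists, a −log10 p of at least 6 gave 143 lost, 5 kb windows 1508 gained and 0 lost, any overlap 50908 and 1400, and leaving out the HB windows 235 lost. Leaving out 1 library in turn gave 10976 to 22756 gained and 773 to 5542 lost windows on equal-size lists, and 34309 to 55384 and 665 to 3818 on full lists.

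The share of gained windows active elsewhere was 99.1% on full lists, 99.4% with 5 kb windows, 98.7% with other lists cut to the equal size, 98.7% in other Sham libraries and 95.1% in cortical Sham libraries (leave-one-out 99.3% to 99.9%). The share adjoining a Sham peak was 36.4% on full lists and 93.8% with 5 kb windows (leave-one-out 45.3% to 57.8%).

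By limma, median centring called 572 elements higher and 466 lower, leaving out the 25% of lowest mean 166 and 187, and maxScore with the replicate block 2 and 11. Leaving out 1 library gave 0 to 806 higher and 0 to 1266 lower, 0 to 2309 interaction calls for CGC and 0 to 3307 for InsularCortex. The cause was not tested. The maxScore fits, the leave-outs and block of the interaction fits, the block for windows, the removal of HB windows, the readings against full lists, and the shares with other lists cut, in other Sham and in cortical Sham libraries were chosen after seeing the data.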
